A study of Saccharomyces cerevisiae with 12 samples.

Results

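The hsp32 deletion strain of budding yeast, Saccharomyces cerevisiae, was compared with its wild type on 6 microarrays, 3 of each, out of the 12 arrays of the series. The members of the comparison are the 6 arrays whose titles name these genotypes, with every gene probe on them. Cells of the hsp32 deletion, of an hsp31 deletion, of an hsp33 deletion and of wild type were all grown in synthetic complete medium and collected at the diauxic shift, with 3 arrays each, and total RNA was labelled with the dye Cy3. The labels give no strain background, deletion marker, mating type, glucose level or cell density, and they do not say whether the 3 arrays of a group came from separate cultures, so the p-values measure the spread between these arrays, which may be technical.

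Hsp32 belongs to the DJ-1 family, which in yeast also holds Hsp31, Hsp33 and the protein of SNO4. The human protein DJ-1 is known from inherited forms of Parkinson's disease, and yeast Hsp31 converts the toxic sugar by-product methylglyoxal to lactate. Yeast given glucose first ferments it to ethanol. At the diauxic shift glucose runs out, growth slows, ribosome production drops, and the cells turn on the genes for respiring ethanol and acetate, for storing trehalose and glycogen, for burning fatty acids and for surviving stress.

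The arrays carried 12504 gene spots for 6252 probes. Levels are given as the log2 normalized signal of a probe, which can be compared between arrays for 1 gene but not between genes, and a change is the mean of the hsp32 deletion arrays minus the mean of the wild-type arrays on this log2 scale. Median foreground intensity was between 726 and 1066 in the hsp32 deletion and between 607 and 1049 in wild type. Replicate arrays correlated at 0.987 to 0.992 in the hsp32 deletion and at 0.995 to 0.997 in wild type, over genes, which are not independent replicates. Probes were tested if 1 or more of the 4 groups had all its arrays above background. Of these 5863 probes, 4105 (70%) passed limma at a Benjamini-Hochberg adjusted p under 0.05, and this is what "rose", "fell", "higher" and "lower" mean below. In the hsp32 deletion 1953 (33.3%) were higher and 2152 (36.7%) lower, and the median change over all genes tested was -0.04. Beyond 2-fold, 676 genes were higher and 551 lower, beyond 4-fold 125 and 98, and beyond 8-fold 7 and 19. The changes are relative to the bulk of genes on each array, since all arrays were given the same distribution of values. Scaled instead to 4 positive control probes whose names begin with E1A, the median change was 0.59, and 3164 genes were higher and 569 lower, 84.8% of the calls being higher against 47.6% here. The labels do not say whether RNA for these probes was added in equal amounts, so this scaling, here and below, rests on that assumption. Scaling to the 75th percentile gave 61.2% higher. The labels name no slide, but offsets in spot positions divided the arrays into 2 inferred slides that both hold each group. Within slide 1, with 1 hsp32 deletion and 2 wild-type arrays, 2626 genes were called, and within slide 2, with 2 hsp32 deletion arrays and 1 wild-type array, 3167. In both fits the spread came from all 4 groups on the slide, and a lone array was assumed to vary like the others. With so large a share of all genes called, the count of a gene group is read against these percentages.

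The probes of the DJ-1 genes were read first. HSP32 had levels of 10.27, 10.10 and 10.14 on the 3 hsp32 deletion arrays, against 12.37, 12.42 and 12.72 in wild type, a fall of 5.04-fold (log2 change -2.33, SE 0.124, limma adjusted p 1.57e-09). The probe stayed above background on all 3 deletion arrays. HSP33 fell by 2.21 and SNO4 by 2.27, nearly as far, although neither is the gene named in the label. HSP32, HSP33 and SNO4 are near-identical copies that lie close to chromosome ends, so these 3 probes may read each other's transcripts, and their levels neither check the label nor measure 1 gene each. HSP31, the more distant member, was at 13.28, 13.13 and 13.23 in the hsp32 deletion and 12.59, 12.56 and 12.80 in wild type, and rose by 0.56 (SE 0.103, adjusted p 0.000235), a limma call lost when arrays were scaled to their medians (0.15, adjusted p 0.21). HSP32 read 11.19, 11.46 and 11.53 in the hsp31 deletion and 10.99, 11.22 and 10.85 in the hsp33 deletion, and HSP33 read 9.41, 9.33 and 9.38 in the hsp33 deletion itself, above the 8.94, 8.99 and 8.77 of the hsp32 deletion.

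Of the genes beside the copies, the PAU and ERR genes fell as the copies did. In the gene order of the RefSeq assembly R64, HSP32 lies next to PAU22 and ERR2, HSP33 next to PAU21 and ERR1, and SNO4 next to PAU19 and ERR3, where ERR genes encode enolase-related proteins and PAU genes encode seripauperins, small cell wall proteins of anaerobic growth. In the hsp32 deletion PAU22 fell by 2.08, PAU21 by 1.86 and PAU19 by 1.70. ERR2 fell by 2.20, with 1 hsp32 deletion array not above background, ERR1 by 2.15 and ERR3 by 1.80, with 2 of its hsp32 deletion arrays not above background. All 6 of these probes had 3 hsp32 deletion arrays below their 3 wild-type arrays, as had the HSP32, HSP33 and SNO4 probes, a separation downwards that held for 39.7% of all genes tested and upwards for 36.2%. On the other side of HSP32, SAM4, which makes methionine from S-adenosylmethionine and homocysteine, rose by 1.43, while FEX2, a fluoride exporter, fell by 0.31 with 1 deletion array not above background. The genes around HSP32 thus went both ways. Their median change against wild type was -0.09 in the hsp32, -0.26 in the hsp31 and -0.22 in the hsp33 deletion. For the genes around HSP33 it was -0.38, -0.65 and -0.53 in the same order, so the lower medians were not particular to the hsp32 deletion. ERR and PAU probes may not read 1 gene each.

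**Figure D1:**
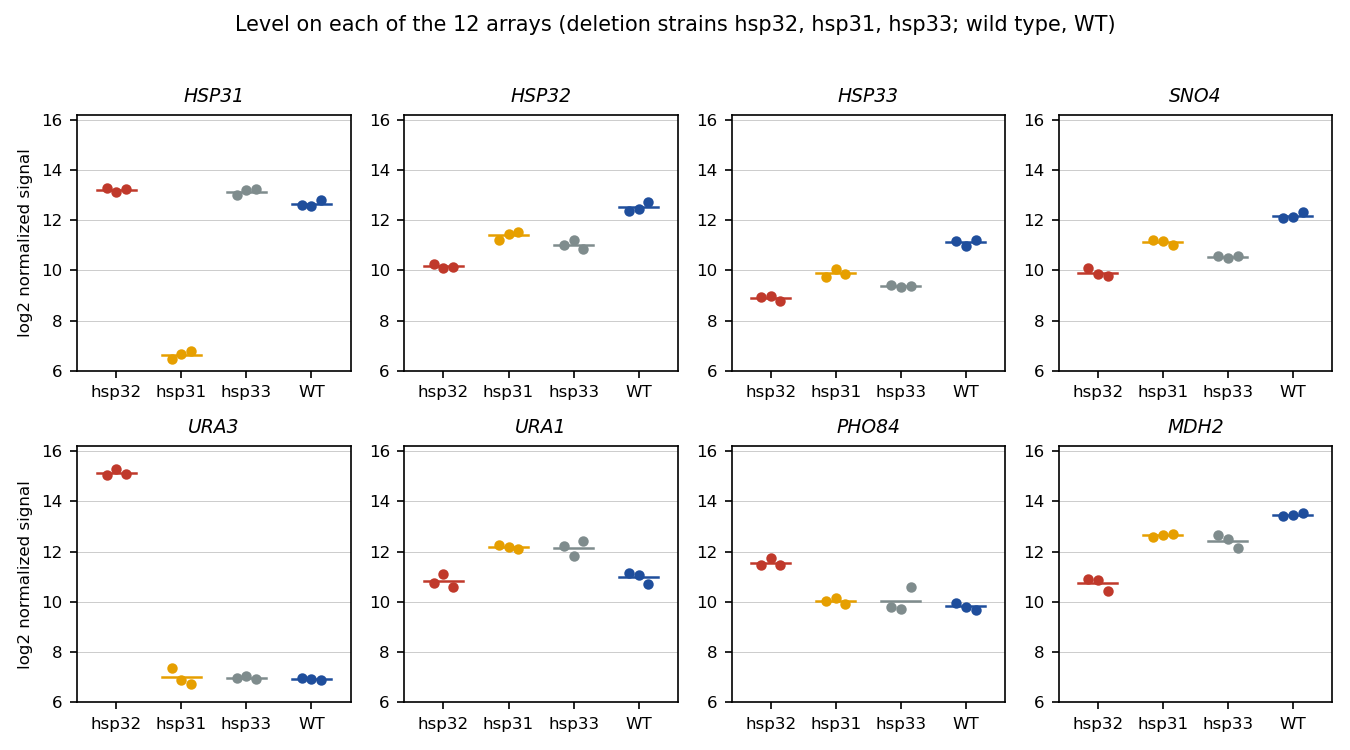
Log2 normalized signal (vertical axis) of 8 genes on all 12 arrays, as points with the group mean as a line, for the hsp32, hsp31 and hsp33 deletions and wild type (WT). HSP32, HSP33 and SNO4 are lowest in the hsp32 deletion, URA3 is near 15 in the hsp32 deletion alone, and MDH2 is lower in the hsp32 deletion than in any other group.

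URA3, which encodes the orotidine phosphate decarboxylase of pyrimidine synthesis and is a common marker in strain building, separated the groups furthest. Its probe read 15.04, 15.29 and 15.09 in the hsp32 deletion, against 6.97, 6.91 and 6.88 in wild type, where it was above background on 0 of 3 arrays. The change is therefore a bound, at least 219-fold higher in the hsp32 deletion (adjusted p 2.94e-14). In the hsp31 deletion the probe read 7.37, 6.88 and 6.75 and in the hsp33 deletion 6.99, 7.05 and 6.92. The rest of the pathway was less uniform. Of the 13 genes tested besides URA3, 5 rose, against 33.3% of all genes, and 2 fell. URA5, the orotate phosphoribosyltransferase, rose by 1.30, URA7, a CTP synthase, by 1.76, and the salvage genes URK1 and FUR1 by 1.11 and 0.94. URA10, the minor isozyme of URA5, fell by 0.90.

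URA1, the dihydroorotate dehydrogenase that acts 2 steps before URA3, showed a pattern the wild-type comparison hides. It read 10.76, 11.11 and 10.60 in the hsp32 deletion and 11.15, 11.07 and 10.73 in wild type, overlapping ranges, with a change of -0.16 that did not pass (SE 0.161, adjusted p 0.4). In the other deletions it read 12.25, 12.16 and 12.11 (hsp31) and 12.23, 11.81 and 12.40 (hsp33). The hsp32 deletion was thus lower than the hsp31 deletion by 1.35 (adjusted p 3.35e-05) and lower than the hsp33 deletion by 1.32 (adjusted p 0.000171). Of 8 genes used as strain markers, 7 were tested, of which 5 rose, URA3 among them, and 1 fell. MET17, the homocysteine synthase, rose by 2.39, LEU2 by 1.85 and HIS3 by 1.33, and none of these 3 was near background in wild type, unlike URA3. CAN1, the gene that fell, had a change of -0.94. LYS2 was not tested, since no group had all its arrays above background. The part of a URA3 marker or of pyrimidine supply in the other changes was not tested.

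Cell type markers also differed. All 7 a-cell genes tested rose (33.3% of all genes did), with a median of 1.16. Their mean level was 11.18, 11.38 and 11.38 on the hsp32 deletion arrays and 10.19, 10.14 and 10.08 on the wild-type arrays. STE2, the receptor for alpha-factor, read 11.44, 11.53 and 11.34 in the hsp32 deletion and 10.10, 10.07 and 10.20 in wild type, and the a-factor precursors MFA1 and MFA2 rose by 1.54 and 1.49. Of the 4 alpha-cell genes, MF(ALPHA)1, the main alpha-factor precursor, read 8.37, 8.45 and 8.44 in the hsp32 deletion and 7.21, 7.17 and 7.36 in wild type, where it was not above background, a rise of at least 2.08-fold. SAG1, the alpha-agglutinin, fell by 0.41, and the other 2 did not pass. In the hsp33 deletion MF(ALPHA)1 read 12.38, 12.44 and 12.26 and STE2 8.86, 8.67 and 8.81, so STE2 was higher on every hsp32 deletion array than on any wild-type or hsp33 deletion array. The a-cell genes were also high in the hsp31 deletion, with mean levels of 11.23, 11.16 and 11.19 and a median of 0.96 against wild type, and 1 of the 7 was higher in the hsp32 deletion than in the hsp31 deletion (19.8% of all genes were) and 0 were lower. Of 7 haploid genes, GPA1, the pheromone pathway G protein subunit, rose by 1.52, and RME1, a repressor of meiosis, fell by 1.08. In RNA of a whole culture, more cells of a type and more transcript per cell cannot be told apart. The part of mating type in the changes described below was not tested.

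The labelled growth stage was checked on short sets of markers of glucose-grown cells and of cells past the shift. All 4 of the glucose set rose: HXT1 and HXT3, low-affinity hexose transporters, of which HXT3 was saturated on all 3 hsp32 deletion arrays, MIG2, a glucose-induced repressor, and HXK2, the main hexokinase. HXK2 read 13.57, 13.44 and 13.41 in the hsp32 deletion and 10.63, 10.57 and 10.76 in wild type, and MIG2 13.12, 13.23 and 13.08 in the hsp32 deletion and 9.998, 10.08 and 9.84 in wild type. All 8 of the set for cells past the shift fell, namely ADH2, JEN1, ICL1, PCK1, FBP1, HXT5, SPG1 and SPG4. The fall was smallest for JEN1, the lactate permease, at 0.45, and was 2.03 for SPG4, a stationary phase gene. HXT5, a transporter of starved and slow-growing cells, was saturated on all 3 wild-type arrays and was at least 6.95-fold lower in the hsp32 deletion. The longer lists around the glucose set went both ways, where 33.3% of all genes were higher and 36.7% lower. Of 10 hexose transporters 4 were higher and 3 lower, HXT5 among the 3. Of 16 genes of glucose sensing and repression 5 were higher and 9 lower, with CAT8, SIP4 and ADR1, described below, among the 9. The labels give no measure of glucose or density to set these markers and lists against, so a difference in growth stage at collection and an effect of the genotype cannot be told apart.

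The use of ethanol and acetate, the carbon sources left after fermentation, was lower in the hsp32 deletion at the level of transcripts. Of 12 genes of this kind 7 fell and 2 rose, with a median of -0.87. ADH2, which oxidises ethanol to acetaldehyde, read 9.92, 9.65 and 9.70 in the hsp32 deletion and 11.71, 11.52 and 11.50 in wild type and fell by 1.82 (SE 0.141, adjusted p 5.69e-08). ACS1, the acetyl-CoA synthetase of non-fermenting cells, read 9.88, 10.08 and 9.46 in the hsp32 deletion and 12.85, 12.76 and 12.62 in wild type, without overlap, and fell by 2.94. ALD3, a stress-induced aldehyde dehydrogenase, fell by 3.96 and was saturated on 1 wild-type array. ACH1, which moves CoA between acetate and other acids, fell by 1.34, and ATO2, a putative ammonium exporter related to the acetate carrier ADY2, by 1.79. ADY2 itself fell by 1.65. The 2 genes that rose were ALD5, a mitochondrial aldehyde dehydrogenase, by 2.54, and ACS2, the acetyl-CoA synthetase used on glucose, by 0.36. The limma call for ACS2 was lost without hsp32 deletion array 2 (0.24, adjusted p 0.104) and without wild-type array 3 (0.30, adjusted p 0.0789).

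The glyoxylate cycle, which builds 4-carbon acids from acetate, and gluconeogenesis, which makes sugar phosphates from them, fell further. Of 12 genes 9 fell and 1 rose, with a median of -1.54. The mean level of the 12 was 11.96, 11.85 and 11.74 on the hsp32 deletion arrays and 13.10, 13.13 and 12.95 on the wild-type arrays. MDH2, the cytosolic malate dehydrogenase, read 10.92, 10.85 and 10.42 in the hsp32 deletion and 13.40, 13.46 and 13.55 in wild type, a change of -2.74 (SE 0.138, adjusted p 9.92e-10). FBP1, the fructose bisphosphatase that commits carbon to sugar, fell by 2.53, and PCK1, which makes phosphoenolpyruvate, by 1.62. ICL1 and MLS1, isocitrate lyase and malate synthase, the 2 steps particular to the glyoxylate cycle, fell by 1.45 and 1.83, less than SFC1, the mitochondrial succinate-fumarate carrier, at 2.65. IDP2, a cytosolic NADP-linked isocitrate dehydrogenase, fell by 2.43. MAE1, the mitochondrial malic enzyme, was the gene that rose, by 1.87. The transcription factors that turn these genes on, CAT8, SIP4 and ADR1, fell by 1.28, 1.15 and 1.47.

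Respiration genes were lower too. In the tricarboxylic acid cycle 16 of 20 genes fell, with a median of -0.89, and 3 rose. SHH3 and SHH4, paralogues of membrane subunits of succinate dehydrogenase, fell by 3.68 and 2.11, while SDH2, the iron-sulfur subunit, fell by 1.22. CIT3, a citrate and methylcitrate synthase, fell by 1.80 and LSC2, a succinyl-CoA ligase subunit, by 1.57. ACO1, the main aconitase, fell by 1.26. Of 37 nuclear genes of the respiratory chain and ATP synthase, 27 fell and 2 rose, with a median of -0.57. Enzymes that feed electrons in were among the deeper falls, NDE2, an external NADH dehydrogenase, at -3.08, CYB2, a lactate dehydrogenase, at -2.50, and DLD1, its D-lactate counterpart, at -1.71. Core subunits moved less, for example RIP1 of complex III at -1.07 and COX4 of complex IV at -0.67. CYC1, the main cytochrome c, rose by 1.60.

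The 8 genes of the mitochondrial DNA were all detected in both groups. Of these, 4 fell and 0 rose, and the others did not pass. The count of falls was 2 without hsp32 deletion array 2 or wild-type array 1, and 6 without wild-type array 3. VAR1, the ribosomal protein encoded there, read 8.94, 8.73 and 8.59 in the hsp32 deletion and 9.81, 9.57 and 9.40 in wild type, and COX3 fell by 0.68. The list of mitochondrial ribosomal proteins of nuclear origin stayed near the middle, with 7 of 70 higher, 23 lower and a median of -0.13. The sign of this median turned with the scaling, to 0.59 against the E1A controls. The 70 include MRP8, at -1.05, which is not an established mitochondrial ribosomal protein. Of 16 carriers of the inner membrane 6 rose (37.5%) and 7 fell (43.8%), near the 33.3% and 36.7% of all genes. Their median was 0.11, and its sign turned with the scaling. GGC1, the GTP and GDP carrier, rose by 2.71, OAC1, an oxaloacetate and sulfate carrier, by 1.78, and YHM2, a citrate and oxoglutarate carrier, by 1.05. CRC1, which brings in acyl-carnitine, fell by 2.16, and MPC1, a subunit of the pyruvate carrier, by 1.44.

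Fat burning takes place in peroxisomes in yeast. Of 14 genes of fatty acid oxidation 11 fell and 1 rose, with a median of -1.43. POT1, the thiolase that releases acetyl-CoA, read 9.06, 9.15 and 8.70 in the hsp32 deletion and 13.07, 13.18 and 12.76 in wild type, a change of -4.03 (SE 0.132, adjusted p 3.15e-11). The earlier enzymes of the same spiral, POX1 and FOX2, fell by 2.005 and 1.49, the catalase CTA1 by 2.55, and CAT2, which passes acetyl groups to carnitine for export, had a change of -2.70. The step after export, CRC1, is given above. PIP2, a subunit of the oleate-responsive activator, was the gene that rose, by 0.54, while OAF1, its partner, did not pass (change -0.13). Peroxisome assembly genes fell in 18 of 27 cases and rose in 4, with a median of -0.46 that became 0.15 against the E1A controls. PEX18 fell by 2.19 and its paralogue PEX21 rose by 1.14, both of them partners of the import receptor Pex7.

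Reserve carbohydrate genes fell without exception. All 7 trehalose genes were lower, with a median of -1.12, and so were all 13 glycogen genes, with a median of -1.49, where 36.7% of all genes were lower. The mean level of the glycogen genes was 11.55, 11.58 and 11.16 on the hsp32 deletion arrays and 12.90, 13.03 and 13.000 on the wild-type arrays, and their median change was -1.34 within slide 1 and -1.61 within slide 2. Synthesis and breakdown fell together. TPS1, trehalose phosphate synthase, read 13.49, 13.34 and 13.41 in the hsp32 deletion and 14.90, 15.03 and 15.11 in wild type and fell by 1.60, and ATH1, an acid trehalase, fell by 2.32. GSY2, the main glycogen synthase, and GLC3, the branching enzyme, fell by 1.44 and 1.49, GPH1, the phosphorylase, by 1.23, and GDB1, the debranching enzyme, by 2.60. GAC1 and PIG2, targeting subunits of the phosphatase that activates glycogen synthase, fell by 2.05 and 2.44. The enzyme subunits that regulate trehalose synthesis were spread between TPS3 at -0.97 and TSL1 at -1.97.

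**Figure D2:**
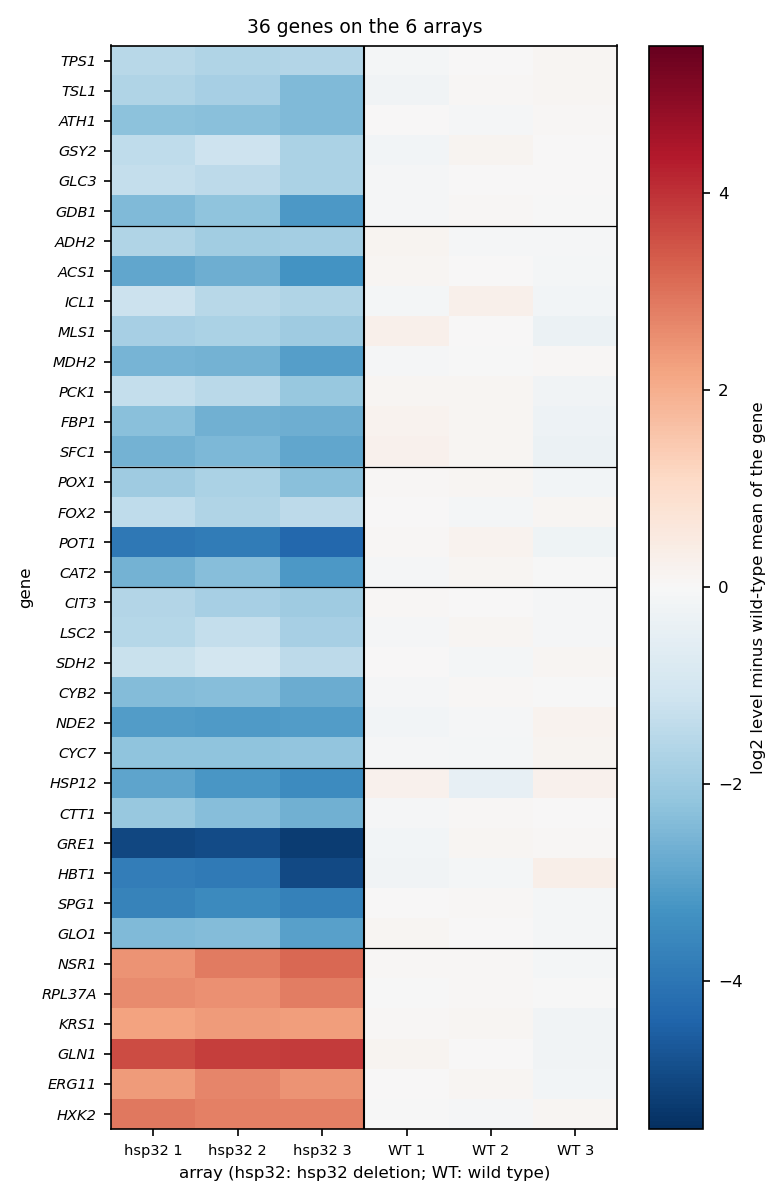
Level of 36 genes on the 3 hsp32 deletion and 3 wild-type arrays, as the log2 level minus the gene's wild-type mean (colour), with lines between genes of carbohydrate storage, ethanol and acetate use with gluconeogenesis, fatty acid oxidation, mitochondria, stress and growth. The wild-type arrays stay near 0, and each hsp32 deletion array shows the same direction for a gene, down to -5.05 on average for GRE1 and up to 3.74 for GLN1.

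Stress and stationary phase genes held several of the deepest falls. All 14 genes of hydrophilins and stationary phase proteins were lower, with a median of -2.38. GRE1, a hydrophilin induced by drying and salt, read 9.94, 10.04 and 9.72 in the hsp32 deletion and 14.81, 15.04 and 14.999 in wild type, a 33.2-fold fall (SE 0.121 on the log2 scale, adjusted p 2.21e-12). HBT1, a protein of mating projections and a substrate of the ubiquitin-like Hub1, read 9.62, 9.51 and 8.47 in the hsp32 deletion and 13.23, 13.29 and 13.72 in wild type. SPS100, a spore wall protein, fell by 4.05, and SPG1, needed for survival in stationary phase, by 3.62. HSP12, a membrane-protecting hydrophilin, was saturated on all 3 wild-type arrays and was at least 9.03-fold lower in the hsp32 deletion. In the wider list of general stress genes 22 of 25 fell and 0 rose, with a median of -1.57. CTT1, the cytosolic catalase, was at least 5.10-fold lower, again with saturated wild-type spots, and GAD1, the glutamate decarboxylase, fell by 2.61.

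Chaperones went both ways. ZUO1, SSZ1, SSB1 and SSB2, which sit on the ribosome and receive new chains, rose by 2.63, 1.75, 1.79 and 1.57. SSA2, a constitutive cytosolic Hsp70, rose by 1.78. SSA3, its starvation-induced paralogue, fell by 2.26, SSA1 by 1.14, the Hsp110 SSE2 by 1.08 and the Hsp40 SIS1 by 0.98. The Hsp90 genes HSC82, the constitutive form, and HSP82, the inducible form, fell by 0.84 and 0.36. The whole list of 26 had 9 higher (34.6%) and 12 lower (46.2%), against 33.3% and 36.7% of all genes. Its median was -0.08, and the sign turned under the E1A scaling. SSA1 and SSA2 are alike enough that their probes may share signal, and here they moved in opposite directions. The disaggregase HSP104 fell by 0.96 and the small heat shock protein HSP42 by 1.42, with 2 wild-type arrays saturated for HSP42, whereas HSP30, a membrane stress protein, rose by 1.27. In the chaperonin TRiC, 4 of 8 subunits rose, led by CCT5 at 1.13, and 1 fell, a call lost without hsp32 deletion array 1 or 2 and without wild-type array 1 or 2.

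Genes of protein breakdown were lower. In the proteasome 32 of 36 genes fell and 0 rose, with a median of -0.61 and a range of -1.84 to -0.10. BLM10, a proteasome activator, fell by 1.84 with 1 hsp32 deletion array not above background, RPT6, an ATPase of the cap, by 1.16, and RPN4, the transcription factor of proteasome genes, by 0.72. In the vacuole 11 of 14 hydrolases and inhibitors fell, with a median of -1.30. PEP4, the protease that matures the others, read 13.66, 13.79 and 13.36 in the hsp32 deletion and 14.83, 14.74 and 14.87 in wild type, and PRC1, carboxypeptidase Y, fell by 1.65. PAI3, an inhibitor of Pep4, fell by 3.37 and PBI2, an inhibitor of proteinase B, by 1.81, so inhibitors and their targets were lower together.

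Autophagy, which carries cytoplasm to the vacuole under starvation, had 33 of 38 genes lower and 1 higher. The median was -0.70, and it became 0.02 against the E1A controls, so the sign of the group depends on the scaling. ATG8, the ubiquitin-like protein on the growing membrane, read 11.53, 11.44 and 11.43 in the hsp32 deletion and 12.73, 12.52 and 12.40 in wild type and fell by 1.08 (SE 0.101, adjusted p 3.85e-07). Among the deeper falls were several receptors that choose cargo. ATG34 was at -2.12, and ATG39 and ATG40, receptors for nucleus and endoplasmic reticulum, at -2.11 and -1.71. ATG36 for peroxisomes was at -1.59 and ATG32 for mitochondria at -1.15. Deep falls were not limited to receptors: ATG33 and ATG42, which are not such receptors, were at -2.01 and -1.39. ATG9, the membrane protein that seeds the organelle, fell by 1.55. The single rise was ATG41, which read 13.57, 13.51 and 13.71 in the hsp32 deletion and 11.66, 11.86 and 11.66 in wild type and rose by 1.87.

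Of 33 genes of defence against oxidants 19 fell and 8 rose, with a median of -0.47. GPX1, a glutathione peroxidase, fell by 2.56 with 1 deletion array not above background, PRX1, the mitochondrial peroxiredoxin, by 1.84, SOD2, the mitochondrial superoxide dismutase, by 1.57 and GRX2, a glutaredoxin, by 1.58. YHB1, the flavohaemoglobin that removes nitric oxide, rose by 2.91, OYE2, an NADPH oxidoreductase, by 2.79, and GRX3, a glutaredoxin of iron sensing, by 1.13.

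Methylglyoxal, the compound that Hsp31 removes, is also handled by the glutathione-dependent glyoxalases and by reductases. Of the 8 genes listed for these, 7 fell and 1 rose, with a median of -0.98. The one that rose was HSP31 itself. GLO1, the first glyoxalase, read 12.07, 12.10 and 11.49 in the hsp32 deletion and 14.58, 14.50 and 14.36 in wild type and fell by 2.59 (SE 0.151, adjusted p 3.5e-09), and GLO2, the second cytosolic enzyme, fell by 0.82. GRE3, GRE2 and GCY1, aldehyde and ketone reductases, fell by 1.13, 1.34 and 1.36. Against the hsp31 deletion 7 of the 8 were lower (17.8% of all genes were) and HSP31, which is deleted there, was higher. Against the hsp33 deletion 1 of the 8 was lower (9.57% of all genes were) and 0 were higher. The list median against wild type was -0.86 in the hsp31 deletion, with HSP31 itself among the 8, and -0.84 in the hsp33 deletion. Both lie close to the -0.98 of the hsp32 deletion.

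Growth genes rose across nearly whole complexes. In the small subunit processome, which makes 18S ribosomal RNA, 52 of 52 genes rose, with a median of 1.39. The mean level was 10.04, 10.14 and 10.31 on the hsp32 deletion arrays and 8.74, 8.77 and 8.71 on the wild-type arrays. NSR1, a nucleolar protein, led with 2.81, followed by KRI1 at 2.30. Large subunit assembly factors rose in 60 of 61 cases, with a median of 1.45, and aminoacyl-tRNA synthetases, which charge transfer RNAs, in 18 of 18, with a median of 1.45, led by KRS1 for lysine at 2.28. Of 21 subunits and regulators of RNA polymerases I and III, 15 rose and 2 fell, and the 2 were MAF1, the repressor of polymerase III, at -0.37, and RRN3, the polymerase I initiation factor, at -0.60. In the list of ribosomal protein genes 138 of 139 rose. The 139 include RPP1, which does not encode a ribosomal protein. Many ribosomal protein genes come in near-identical pairs, so their probes may not separate the copies.

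Translation factors showed more range, with 26 of 35 higher and 3 lower. YEF3, elongation factor 3, rose by 1.80 and its paralogue HEF3, which is not in the list, fell by 3.003. ANB1, the form of eIF5A made without oxygen, rose by 2.33, while HYP2, the form made with oxygen, fell by 0.68. SYO1, which brings ribosomal proteins Rpl5 and Rpl11 into the nucleus, rose by 2.56, and HEM13, an oxygen-regulated enzyme of haem synthesis, by 2.66.

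**Figure D3:**
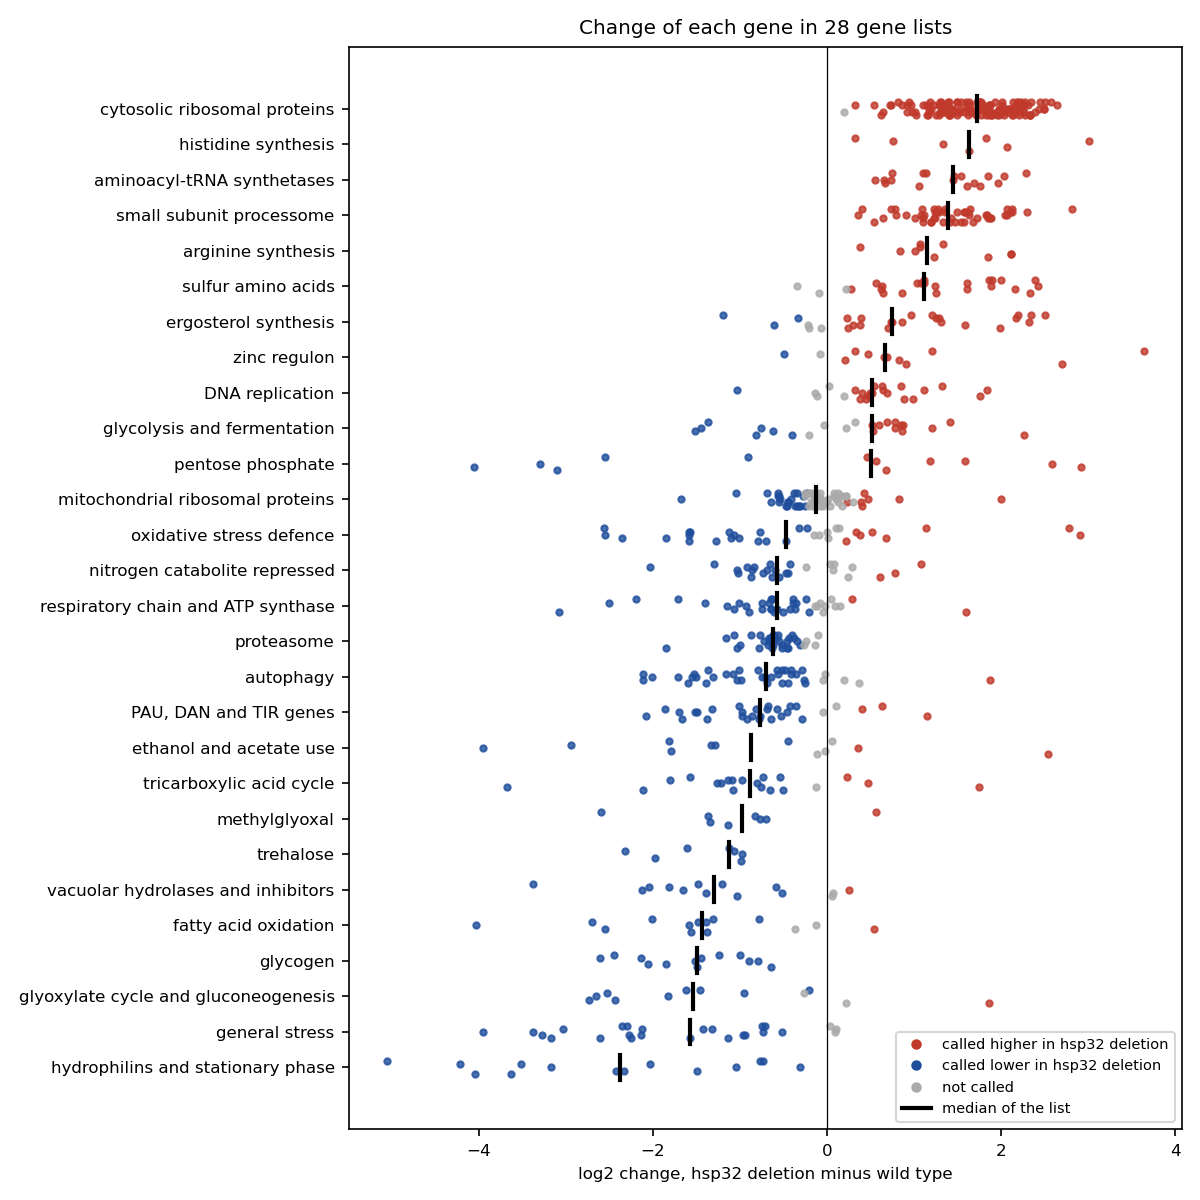
Change of each gene tested (points, log2, hsp32 deletion minus wild type) in 28 gene lists, ordered by list median (bar), with genes called higher in red, lower in blue and not called in grey. Cytosolic ribosomal proteins lie furthest to the right, with a median of 1.73, and hydrophilins with stationary phase proteins furthest to the left.

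Amino acid synthesis was higher pathway by pathway. Histidine synthesis rose in 7 of 7 genes, with a median of 1.64 and changes between 0.32 for HIS6 and 3.01 for HIS7. HIS4, which carries out several steps, read 15.52, 15.59 and 15.58 in the hsp32 deletion and 13.46, 13.50 and 13.53 in wild type. Arginine synthesis rose in 10 of 10 genes, with a median of 1.15, including ARG4, the argininosuccinate lyase, at 2.12. In the lysine pathway 6 of 8 genes tested rose, LYS20, the first committed enzyme, by 2.03, while LYS2 was not above background. In branched-chain synthesis 11 of 12 rose, BAT1, the mitochondrial aminotransferase, by 2.63 and ILV5 by 2.41, and in aromatic synthesis 11 of 12, ARO2, the chorismate synthase, by 1.87. GCN4, the activator of these genes, rose by 1.45, reading 13.04, 13.56 and 13.37 in the hsp32 deletion and 12.08, 11.86 and 11.70 in wild type. Its activity depends on translation, which these arrays do not measure.

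Nitrogen entry genes divided. GLN1, glutamine synthetase, read 14.83, 15.06 and 15.09 in the hsp32 deletion and 11.42, 11.29 and 11.05 in wild type, a rise of 3.74 (SE 0.152, adjusted p 1.87e-10). GDH1, the glutamate dehydrogenase used on glucose, rose by 0.72, while GDH3, its paralogue of respiring cells, fell by 2.02 and GDH2, which breaks glutamate down, by 0.66. Of 26 genes held down by good nitrogen sources, 17 fell and 3 rose, with a median of -0.57. CAR2, of arginine breakdown, fell by 2.04, PUT4, the proline permease, by 1.30 and DUR3, the urea transporter, by 1.03. The 3 that rose were MEP2, an ammonium permease, by 1.08, UGA3 by 0.78 and GLN3, an activator of the group, by 0.61. Among 19 amino acid permeases 5 rose and 9 fell, BAP3 at 1.67 and AGP3 at -1.29 being at the ends with PUT4.

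Sulfur amino acid genes rose in 22 of 25 cases and fell in 0, with a median of 1.12, CYS3, the cystathionine lyase, by 2.43 and MET16, which reduces activated sulfate, by 2.34. Serine, glycine and one-carbon genes rose in 8 of 13 cases, and the 3 that fell were GCV1, GCV2 and GCV3 of the glycine cleavage system, at -1.49, -1.04 and -0.49. In purine synthesis 10 of 14 rose. IMD3 and IMD4, which start the guanine branch, rose by 1.92 and 1.94, where their near-identity limits the reading of each, and ADE16, a late enzyme, fell by 1.34. FCY2, the purine and cytosine permease, rose by 2.80.

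Membrane and metal genes added further groups. Ergosterol synthesis rose in 21 of 27 genes and fell in 3, with a median of 0.74. ERG11, the lanosterol demethylase, read 13.04, 13.35 and 13.17 in the hsp32 deletion and 10.72, 10.78 and 10.54 in wild type, and ERG25 and ERG3, other oxygen-using steps, rose by 2.35 and 2.32. HMG2, the less used HMG-CoA reductase, fell by 1.19 and ERG9, squalene synthase, by 0.61. Of 12 inositol and phospholipid genes 5 rose and 4 fell, the rises numbering 1 to 3 when any 1 of the 6 arrays was left out. PAH1, the phosphatidate phosphatase, and CHO1, the phosphatidylserine synthase, fell by 2.12 and 1.83. The zinc regulon rose in 10 of 12 genes. ZRT1, the high-affinity zinc importer, read 14.60, 14.72 and 14.83 in the hsp32 deletion and 10.88, 11.23 and 11.12 in wild type, and ZPS1, a cell surface zinc-binding protein, rose by 2.71. Iron genes had 7 of 25 higher and 11 lower: FTR1, the iron permease, rose by 1.40 and FIT1, a wall protein that holds siderophores, fell by 1.94.

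Glycolysis and fermentation had 12 of 23 genes higher and 7 lower, with a median of 0.52 that was 0.04 under median scaling and 0.20 without normalization. PFK27, a kinase that makes the activator fructose 2,6-bisphosphate, rose by 2.27, and PFK26, its isozyme, fell by 1.52. ENO2 rose by 1.41 and ENO1 fell by 0.41. In the pentose phosphate pathway the split was complete for each of 4 pairs: GND1, TKL1, SOL3 and TAL1 rose by 2.92, 2.59, 1.59 and 0.68, and GND2, TKL2, SOL4 and NQM1, their paralogues, fell, with changes of -3.10, -4.05, -3.30 and -2.55, where NQM1 was saturated on 2 wild-type arrays. GND1 read 14.94, 14.83 and 14.89 in the hsp32 deletion and 11.94, 11.94 and 12.01 in wild type, while GND2 read 11.14, 11.59 and 10.97 in the hsp32 deletion and 14.24, 14.35 and 14.41 in wild type. ZWF1, which has no paralogue and starts the pathway, fell by 0.91.

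Of 26 pairs of isozymes or paralogues, with the gene of growing cells on glucose named first and that of starved, respiring or stressed cells second in most, 4 held a gene with saturated spots in both groups, which cannot be read for change (the pairs of hexokinases, alcohol dehydrogenases, pyruvate carrier subunits and aldehyde dehydrogenases). In the other 22 pairs, 15 first genes rose and 15 second genes fell. In 10 of these pairs the first rose and the second fell, in 1 pair the reverse held, in 3 both rose and in 2 both fell. The pair in reverse was HYP2 with ANB1. CYC1 with CYC7, the cytochrome c forms, and ACS2 with ACS1 were among the 10, with CYC7 at -2.19. GPP1 and GPP2, the glycerol phosphatases, both rose, by 3.11 and 1.89, while GUT1 and GUT2, which use glycerol, fell by 1.67 and 2.32 and STL1, which imports it, by 2.56. Glycerol synthesis did not rise as a whole: GPD1, a glycerol phosphate dehydrogenase, fell by 0.54, and its isozyme GPD2 did not pass (change 0.22). Of all 12 glycerol genes 3 rose and 8 fell. The pairs were chosen with earlier results of these data known, so the count of pairs describes them and tests nothing.

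**Figure D4:**
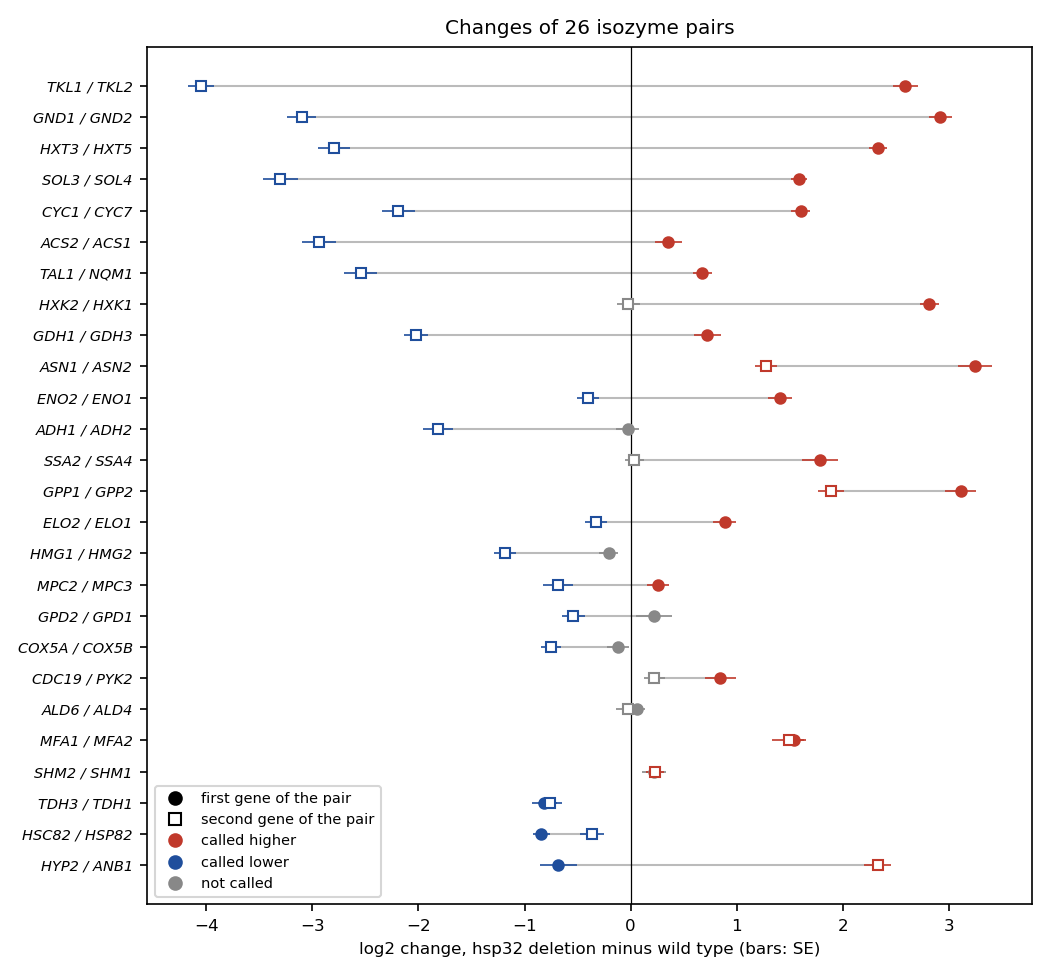
Log2 change, hsp32 deletion minus wild type, of both genes of 26 pairs, the 4 with saturated genes included, with the first gene as a filled circle, the second as an open square, bars for the SE and colour for the call. The widest split is that of TKL1 and TKL2, at 2.59 and -4.05.

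Signalling genes that set growth against starvation did not move as a block. Of 38, 20 fell and 8 rose, with a median of -0.30 that turned positive under the E1A scaling. The protein kinase A genes TPK2 and BCY1 fell by 1.65 and 1.45, whereas TPK3 rose by 0.92. SCH9, a growth kinase downstream of TORC1, fell by 1.55 and YAK1, a kinase that opposes protein kinase A, by 1.71. MSN4, an activator of stress genes, rose by 1.61, opposite to the stress genes listed above, and MSN2, its partner, did not pass (change 0.10).

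Cell cycle and wall genes were higher on balance. DNA replication genes rose in 18 of 23 cases, POL12 and POL30, a polymerase subunit and the sliding clamp, by 1.84 and 1.76, while RNR2, a subunit of ribonucleotide reductase, fell by 1.03. In a list of cyclins that also holds the kinase inhibitors SIC1 and FAR1, 8 of 13 genes tested rose. SIC1, an inhibitor of the S-phase kinase, fell by 0.68. Wall genes rose in 18 of 29 cases, GAS1, a glucan-remodelling enzyme, by 2.41, and PIR3, a wall protein of stressed cells, fell by 1.30. Genes for separating mother and daughter fell in 7 of 12 cases, with DSE3 at -1.60 and CTS1, the chitinase, at -1.27. Seripauperin and related genes fell in 25 of 30 cases, with a median of -0.77, though TIR1 rose by 1.15, and PAU probes share much sequence and may not read 1 gene each.

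The hsp32 deletion was then set directly against the other deletions, a contrast from which wild type drops out. Against the hsp31 deletion 2206 of 5863 genes differed (37.6%), with 1163 higher (19.8%) and 1043 lower (17.8%) in the hsp32 deletion. Against the hsp33 deletion 1097 differed (18.7%), with 536 higher (9.14%) and 561 lower (9.57%). Genes higher than in both numbered 494 (8.43%) and lower than in both 481 (8.2%). After URA3, the gene furthest above both by the smaller of its differences was PHO84, the high-affinity phosphate transporter. It read 11.45, 11.76 and 11.48 in the hsp32 deletion, 10.03, 10.17 and 9.92 in the hsp31 deletion, 9.81, 9.72 and 10.59 in the hsp33 deletion and 9.95, 9.81 and 9.69 in wild type. The difference was 1.52 from the hsp31 deletion (adjusted p 3.42e-05) and 1.52 from the hsp33 deletion (adjusted p 0.000153), and no array of another group reached the hsp32 deletion arrays. The phosphate regulon without PHO84 was mixed, with 5 of 13 genes higher than wild type (3 without hsp32 deletion array 2) and 2 lower, and PHO89, the other phosphate importer, fell by 0.67.

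MCH5, a riboflavin transporter, IRC7, a sulfur lyase, and EEB1, which makes ethyl esters, were higher than in both other deletions, by 1.60, 1.48 and 1.43 against the hsp31 deletion and by 1.24, 1.17 and 1.13 against the hsp33 deletion. NSR1 and SYO1, of ribosome assembly, were higher by 1.69 and 1.59 against the hsp31 deletion and by 1.12 and 1.10 against the hsp33 deletion. MDH2 was lower, by 1.92 against the hsp31 deletion (adjusted p 1.2e-06) and 1.70 against the hsp33 deletion (adjusted p 2.1e-06). Against the hsp31 deletion FBP1 was lower by 1.57, ADY2 by 1.82, SUE1, which helps degrade unstable cytochrome c, by 1.58, and RGI2, a respiratory growth protein, by 1.87. Against the hsp33 deletion the same genes were lower by 1.05 for FBP1, 1.14 for ADY2, 1.10 for SUE1 and 1.08 for RGI2. PUT4 was lower than in both, reading 12.59, 12.23 and 11.57 in the hsp32 deletion, 13.69, 13.78 and 13.48 in the hsp31 deletion, 13.55, 13.13 and 12.74 in the hsp33 deletion and 13.36, 13.26 and 13.67 in wild type.

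By gene list, 45 of 52 processome genes were higher than in the hsp31 deletion and 43 higher than in the hsp33 deletion, against 19.8% and 9.14% of all genes. All 13 glycogen genes were lower than in the hsp31 deletion and 9 lower than in the hsp33 deletion, against 17.8% and 9.57%. In the tricarboxylic acid cycle 15 of 20 genes were lower than in the hsp31 deletion and 8 lower than in the hsp33 deletion. Of 36 proteasome genes 7 were lower than in the hsp31 deletion and 2 lower than in the hsp33 deletion. The 3 deletions share the wild-type arrays, so their changes against wild type are given side by side only. The processome median was 1.39 in the hsp32, 0.64 in the hsp31 and 0.90 in the hsp33 deletion. The glycogen median was -1.49 in the hsp32, -0.50 in the hsp31 and -0.77 in the hsp33 deletion. Some genes far from wild type did not pass between deletions: MIG2 differed by 0.09 from the hsp33 deletion (adjusted p 0.602) and GND2 by -0.23 from the hsp31 deletion (adjusted p 0.214).

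**Figure D5:**
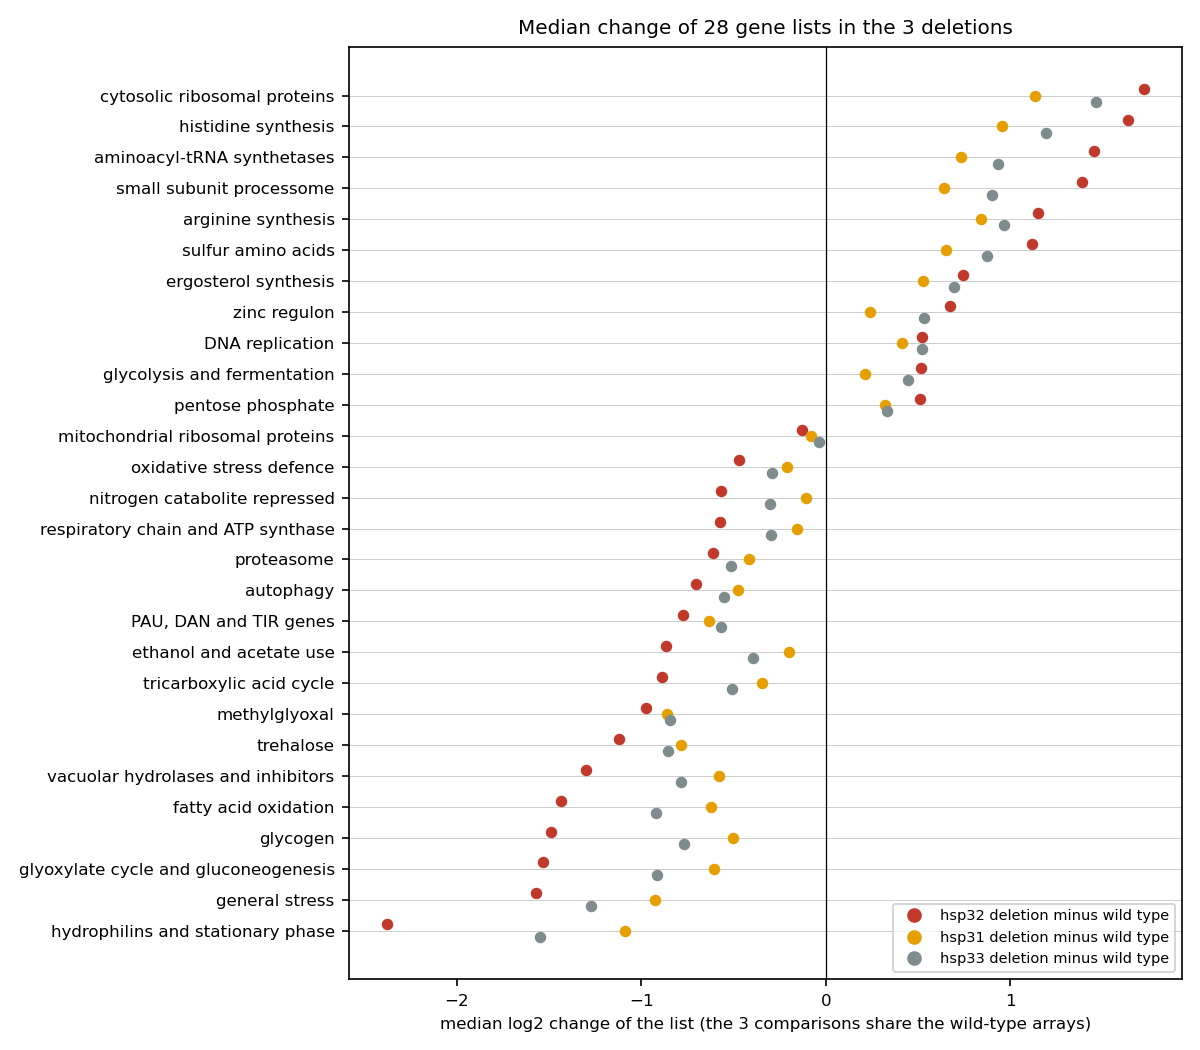
Median log2 change against wild type of 28 gene lists in the hsp32, hsp31 and hsp33 deletions, which share the 3 wild-type arrays. For hydrophilins and stationary phase proteins the hsp32 deletion lies at -2.38, the hsp31 deletion at -1.09 and the hsp33 deletion at -1.55.

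The authors' deposited table of this comparison lists 7651 spots with an unadjusted p at or under 0.05, of which 2729 are higher and 4922 lower in the hsp32 deletion. Both spots of a gene are in the authors' deposited table for 3224 genes, 1162 higher, 2062 lower and 0 with spots in opposite directions. Of those higher there, 1142 were called higher and 0 lower here. Of those lower there, 1761 were called lower, 11 higher, and 290 did not pass here. The authors' deposited table gives ratios of hsp32 deletion over wild type of 0.0179 and 0.0186 for the spots of GRE1, 0.0423 and 0.0454 for POT1 and 0.102 and 0.103 for GLO1. These ratios are not on the scale of the changes here. A spot of ADE8, with a change of -0.004 here, has a ratio of 0.68 there, and a spot of LEU4, with a change of 0.41 here, has 0.79. Sizes and counts of higher and lower are thus not directly comparable. For HSP32 the ratios in the authors' deposited table are 0.146 and 0.149 and for SNO4 0.142 and 0.155, so that table too shows both probes lowered alike. Ratios above 1 in it have lost their decimal point and were used only for their direction.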

How the data were processed

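Total RNA of 12 yeast samples was labelled with Cy3 and hybridised to 1-colour arrays, per the labels' protocols, which name Agilent's low input labelling. The deposited scanner tables hold spot intensity, as mean foreground and median local background, and the percent of saturated pixels, per the file headers. The authors' deposited table of the comparison holds an unadjusted p-value and a fold per spot, and its test is not given in the sources used here. The slide of an array was inferred from spot positions in the files, since the labels name none.

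Background was corrected with normexp (offset 50) over 15736 spots, gene spots of all 12 arrays were quantile normalized, and the spots of a probe were averaged as log2 values. A probe was above background beyond the median plus 2 SD of 77 negative control spots, and 5863 of 6252 were tested. R 4.3.3 and limma 3.58.1 fitted 4 group means, with 8 residual degrees of freedom, and p-values were adjusted over the 5863 probes tested. The fit was tested on simulated data. Spots with at least 50% saturated pixels were counted as saturated. A bound ("at least") divides the bright group's mean by the dim group's detection limit or uses saturated spots at their value. RefSeq's R64 gene table named 5753 probes, and 499 kept their names from the files. No coordinates are given, since the files name no genome build. The number of arrays limits the precision.

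Named genes are DJ-1 genes, URA3, members of lists of at most 14 genes, the 4 largest changes per direction in longer lists, the 30 largest per direction over all genes, the 8 largest per direction against both other deletions, and the 5 largest that went against their list. A few others are named as paralogues or regulators of these, or as neighbours of the DJ-1 genes, chosen after their values were seen. A few genes covered by the rule are not reported here. Members, lists and pairs were chosen with earlier results of these data known. Alternatives covered background, scaling, filters, slide, replicate number, each array left out and a fold limit.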

Additional observations from a re-analysis of the deposited data

Results flagged for a closer look

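Of 77 negative control spots, the brightest read 1107 above local background on hsp32 deletion array 2 and 147 on hsp32 deletion array 3, against a highest value of 49 on the wild-type arrays. Both signals lie outside the gene probes. On hsp32 deletion array 2 they raised the background threshold to 284 and lowered the share of gene probes above it to 80.3%, which would be 94.8% with a threshold from the median absolute deviation. That threshold, chosen after the data were seen, left 4105 calls for the comparison, 1953 higher and 2152 lower.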

How the results depend on the processing

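The 4105 calls against wild type became 2083 without normalization (1134 higher, 949 lower), 2420 with a 1.5-fold limit (1191 higher, 1229 lower) and 2626 within slide 1 (1270 higher, 1356 lower), which tests fewer arrays. Scaled to the E1A controls, an alternative chosen after seeing the data like the values within slides, 3164 were higher and 569 lower. Turns of sign were followed singly for 236 genes only, and the other called genes were not counted this way. Among the 236, 4 called genes turned positive, FEX2 to 0.50, MAF1 to 0.11, RRN3 to 0.016 and SAG1 to 0.32. So did OAF1 at 0.43 and URA1 at 0.30, neither of them called. FEX2 was 0.085 and OAF1 0.016 under 75th percentile scaling, MSN2 -0.043 under median scaling and URA1 0.013 under cyclic loess, and the cause of these turns was not tested. Leaving out each array in turn gave 3788 to 3921 calls against wild type (1806 to 1869 higher, 1982 to 2052 lower), 1838 to 2038 against the hsp31 deletion (971 to 1072 higher, 867 to 966 lower) and 812 to 1025 against the hsp33 deletion (412 to 496 higher, 400 to 529 lower). With the replicate number as a block, 4058 genes were called against wild type, 2152 against the hsp31 deletion and 1088 against the hsp33 deletion. The numbers did not pair the arrays: deviations of same-numbered arrays correlated at -0.01, 0.20 and 0.06, and 3 of 6 arrays correlated best with their own number. Other background corrections, filters, the slide as a block and the variance trend left these counts within 1.5 times. List medians moved by more than the spread between arrays in 51 of 70 cases under median scaling, 53 without normalization, 42 under 75th percentile scaling and 67 under the E1A scaling. Under median scaling the respiratory chain median was -0.90, the proteasome median -1.02 and the glycolysis median 0.04, and under 75th percentile scaling the autophagy median was -0.39, that of peroxisome assembly -0.26 and that of signalling -0.15. With 1 array left out, 1 of the 2 respiratory chain rises was lost without hsp32 deletion array 1 or 3 or wild-type array 1, 1 sulfur amino acid gene fell and 1 general stress gene rose without hsp32 deletion array 2, and 2 genes rose in the glyoxylate and gluconeogenesis list without wild-type array 2 and in autophagy without wild-type array 1. Spots saturated in wild type limit the falls of bright stress genes, and dim spots the low ones. Promoter motifs and a comparison within slides holding 2 arrays of each group were not run.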
